A study of Mus musculus with 8 samples.

Results

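The smooth muscle contractile genes described here are 10 genes, Acta2, Tagln, Cnn1, Myl9, Myh11, Actg2, Des, Lmod1, Synpo2 and Mylk. They are listed by name and are 10 of the 18824 genes in the deposited table. All 10 had enough counts to be tested, among 14746 tested genes. The study sequenced RNA from whole mouse lung in 2 groups of 4 libraries. One group (KO_BLM) came from Slc15a3-/- mice, which lack SLC15A3, also called PHT2, a transporter of histidine and small peptides found in endosomes and lysosomes. The other group (WT_BLM) came from wild-type mice. Mice of both genotypes were 8 weeks old and received bleomycin (BLM), a drug that injures the lung and leads to fibrosis, into the trachea at 2 mg/kg in 50 μl of saline, and lungs were taken on day 21. Every library therefore came from an injured lung, and saline-treated lungs were not analysed here. The labels do not say whether the 4 libraries of a group came from separate animals, so p-values measure the spread between these libraries.

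Smooth muscle cells surround the airways and blood vessels of the lung. They shorten when myosin, switched on by phosphorylation of its regulatory light chain, pulls on thin filaments of smooth muscle actin. Serum response factor, with its myocardin-family partners, drives many of these genes by binding a DNA element called the CArG box. Fibroblasts that become myofibroblasts in an injured lung switch on part of the same set. Acta2, Tagln, Cnn1 and Myl9 were therefore grouped as shared with myofibroblasts, and Myh11, Actg2, Des, Lmod1 and Synpo2 as smooth muscle-restricted. These names are the grouping used here, and Des is also made by other muscle and by pericytes. Mylk was kept apart because its locus also makes a long kinase used outside muscle, besides a short C-terminal protein. In whole-lung RNA, fewer cells of a type and less RNA per cell cannot be told apart.

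The libraries held 17627999 to 18471445 gene counts in KO_BLM lungs and 18878835 to 20180831 in WT_BLM lungs. Slc15a3, the deleted gene, had 5 to 18 counts in KO_BLM libraries, against 841 to 1124 in WT_BLM libraries, so the labels and the data matched. The lung epithelial markers Sftpc and Ager, which are in none of the gene lists used here, were abundant in every library. The lowest Sftpc level was 13936 CPM (counts relative to TMM-adjusted library size) in KO_BLM lungs and 4719 CPM in WT_BLM lungs. Of the 14746 tested genes, 41.5% differed between the genotypes at an adjusted p below 0.05 (edgeR quasi-likelihood test with Benjamini-Hochberg adjustment over all tested genes), 20.8% lower and 20.7% higher in KO_BLM lungs. The groups did not overlap for 40.9% of tested genes.

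Of the 10 contractile genes, 5 were lower in KO_BLM lungs than in WT_BLM lungs (Acta2, Tagln, Myl9, Actg2 and Des), 1 was higher (Lmod1) and 4 did not pass the test (Cnn1, Myh11, Synpo2 and Mylk). These 6 calls are to be read against a background in which 41.5% of all tested genes were called. The same 6 genes were those whose 4 KO_BLM values did not overlap the 4 WT_BLM values. The median log2 fold change, KO_BLM over WT_BLM, was −0.27 over the 10 genes and 0.0025 over all tested genes. It was −0.84 for the genes shared with myofibroblasts, of which 3 of 4 fell, and −0.11 for the restricted genes, of which 2 of 5 fell and 1 rose. Both medians depended on where single genes were placed: the shared median was −0.43 with Mylk counted as shared and −1.24 with Cnn1 counted as restricted, which put the restricted median at 0.15. Without KO_BLM replicate 3 the restricted median was 0.0017. The restricted median without Des was not computed.

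**Figure D1:**
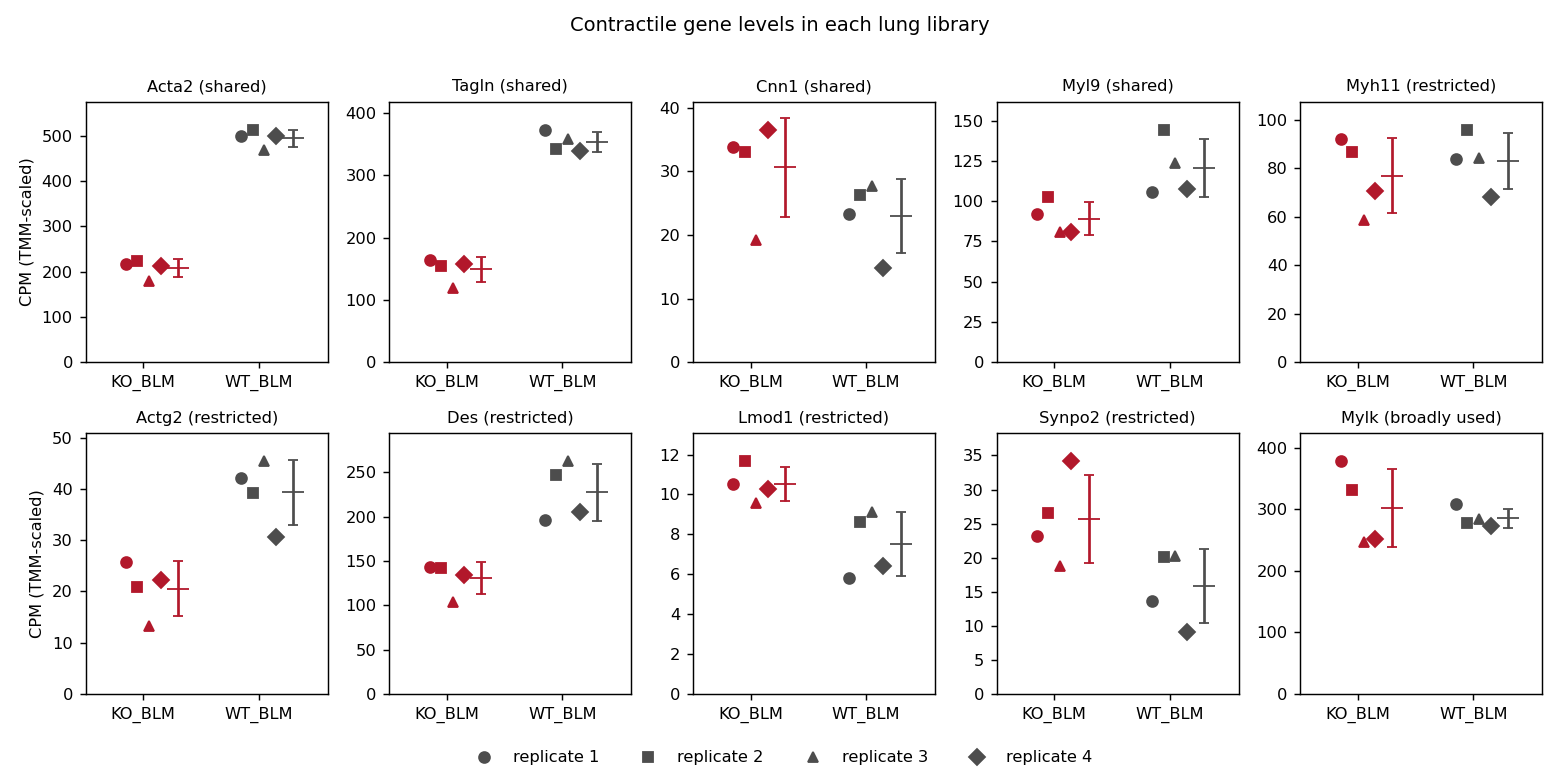
Level of each contractile gene in CPM, 1 panel per gene, with KO_BLM libraries left of WT_BLM libraries. Points are libraries, shaped by replicate number, and bars mark the group mean with its SD; Acta2 and Tagln separate widely, while Cnn1, Myh11, Synpo2 and Mylk overlap.

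Acta2 encodes smooth muscle alpha-actin, the thin filament actin used most often to mark myofibroblasts (NCBI gene 11475, chromosome 19, 34240336 to 34255585, mm10). Its level was 217.7, 224.3, 178.7 and 213.7 CPM in KO_BLM replicates 1 to 4, against 498.8, 513.5, 468.8 and 499.5 CPM in WT_BLM replicates 1 to 4. All 4 KO_BLM libraries lay at less than the lowest WT_BLM library, with a wide gap between the groups. Acta2 averaged 209 ± 20.4 CPM in KO_BLM lungs and 495 ± 18.8 CPM in WT_BLM lungs (SD, n = 4 each). It fell 2.37-fold (edgeR log2 change −1.25 with SE 0.09, adjusted p = 1.76e-05), and leaving out any library gave −1.28 to −1.18.

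Because CArG boxes are the element most tied to these genes, the 250 bases before a RefSeq transcript start were searched for them on both strands (GRCm38.p6, the assembly of mm10). Such a window, 1 for each gene, was found for 7 of the 10 genes, all but Tagln, Myh11 and Actg2. That transcript start is not always the outer end of the gene span: it lies 212 bases inside the span for Acta2, 56 for Myl9, 32 for Cnn1, 19 for Synpo2 and 0 for Des and Lmod1. For Mylk it lies 39751 bases inside, so the Mylk window does not describe sequence before the gene. Acta2 and Myl9 held matches, shown here with the match in capitals and 10 bases on either side, 5′ to 3′ along the gene's strand. The Acta2 sites are at chr19:34255438-34255467 and chr19:34255388-34255417, minus strand, inside the Acta2 gene span and an annotated untranslated region, and each departs from a full CArG box by 1 inner C or G. The Myl9 sites are at chr2:156775293-156775322, a full CArG box, and at chr2:156775355-156775384, with 1 inner C or G, both on the plus strand.
Acta2, 84 bases before that transcript start: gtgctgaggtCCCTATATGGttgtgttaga
Acta2, 34 bases before that transcript start: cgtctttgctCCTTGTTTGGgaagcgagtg
Myl9, 161 bases before that transcript start: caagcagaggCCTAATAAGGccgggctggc
Myl9, 99 bases before that transcript start: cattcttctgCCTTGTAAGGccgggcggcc
A full CArG box occurred in 1.47% of 32851 gene windows of this length, and a box with 1 inner C or G in 7.24%. The windows of Cnn1, Des, Lmod1 and Synpo2, and the internal window of Mylk, held neither form, which says only that these letters are not in those windows. Acta2 fell 2.37-fold and Myl9 1.35-fold, while genes without a match in the window included both Des, which fell, and Lmod1, which rose. Such matches are descriptions of sequence and not measured binding.

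Tagln encodes transgelin, an actin-binding protein of smooth muscle also called SM22 alpha (gene 21345, chromosome 9, 45929628 to 45936058). Its level was 164.7, 155.2, 120.0 and 156.9 CPM in KO_BLM lungs, against 372.6, 342.4, 357.8 and 338.8 CPM in WT_BLM lungs. The groups were as far apart as for Acta2. Tagln averaged 149 ± 19.9 CPM in KO_BLM lungs and 353 ± 15.5 CPM in WT_BLM lungs (SD, n = 4 each), a fall of 2.37-fold (edgeR log2 change −1.24 with SE 0.11, adjusted p = 4.16e-05). Tagln overlaps Pcsk7 and the antisense gene Gm48529 on the opposite strand. Pcsk7 shares 108 exon bases with it, and Gm48529, which is not among the counted genes, shares 1241. These 2 genes share 58.4% of the 50-base windows of Tagln transcripts, so some Tagln reads could have been assigned differently.

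Myl9 encodes the regulatory light chain of smooth muscle myosin (gene 98932, chromosome 2, 156775408 to 156781657). Its level was 92.3, 102.6, 80.9 and 81.1 CPM in KO_BLM lungs, against 105.6, 144.3, 123.9 and 107.7 CPM in WT_BLM lungs. The groups did not overlap, but the highest KO_BLM library and the lowest WT_BLM library were close. Myl9 averaged 89.2 ± 10.4 CPM in KO_BLM lungs and 120 ± 17.9 CPM in WT_BLM lungs (SD, n = 4 each), a fall of 1.35-fold (edgeR log2 change −0.43 with SE 0.12, adjusted p = 0.0181). On the log2 FPKM scale, limma gave a change of −0.34 with adjusted p of 0.0600 to 0.0911, which did not pass.

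Cnn1 encodes calponin 1, which binds actin and restrains myosin (gene 12797, chromosome 9, 22099221 to 22109221). Its level was 33.8, 33.0, 19.2 and 36.6 CPM in KO_BLM lungs, against 23.4, 26.2, 27.6 and 14.8 CPM in WT_BLM lungs. KO_BLM replicates 1, 2 and 4 were higher than every WT_BLM library, and KO_BLM replicate 3 was lower than 3 of the 4 WT_BLM libraries. Cnn1 averaged 30.6 ± 7.78 CPM in KO_BLM lungs and 23.0 ± 5.75 CPM in WT_BLM lungs (SD, n = 4 each), with a log2 difference of 0.41 (SE 0.23, edgeR adjusted p = 0.171). Without KO_BLM replicate 3 it was 0.58 with an edgeR adjusted p of 0.0381. Cnn1 was thus the shared gene whose mean lay on the opposite side from those of Acta2, Tagln and Myl9.

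Myh11 encodes the heavy chain of smooth muscle myosin and is the gene most used to mark smooth muscle against fibroblasts (gene 17880, chromosome 16, 14194527 to 14292188). Its level was 92.2, 86.6, 58.5 and 70.6 CPM in KO_BLM lungs, against 84.0, 95.9, 84.4 and 68.0 CPM in WT_BLM lungs. The groups overlapped, although KO_BLM replicate 3 was lower than every WT_BLM library and WT_BLM replicate 2 was higher than every KO_BLM library. Myh11 averaged 77.0 ± 15.3 CPM in KO_BLM lungs and 83.0 ± 11.5 CPM in WT_BLM lungs (SD, n = 4 each), with a log2 difference of −0.11 (SE 0.15, edgeR adjusted p = 0.587). Without KO_BLM replicate 3 the sign turned, to 0.0017. A miss of the threshold does not show that the level was equal.

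Actg2 encodes smooth muscle gamma-actin, the actin of visceral smooth muscle (gene 11468, chromosome 6, 83512909 to 83536251). Its level was 25.8, 20.9, 13.2 and 22.3 CPM in KO_BLM lungs, against 42.1, 39.2, 45.4 and 30.6 CPM in WT_BLM lungs. All KO_BLM libraries were lower than every WT_BLM library. Actg2 averaged 20.6 ± 5.31 CPM in KO_BLM lungs and 39.3 ± 6.35 CPM in WT_BLM lungs (SD, n = 4 each), a fall of 1.91-fold (edgeR log2 change −0.94 with SE 0.19, adjusted p = 0.00445).

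Des encodes desmin, the intermediate filament of muscle cells (gene 13346, chromosome 1, 75360292 to 75368579). Its level was 142.6, 141.6, 104.0 and 134.4 CPM in KO_BLM lungs, against 196.2, 246.9, 262.4 and 204.9 CPM in WT_BLM lungs. The groups did not overlap. Des averaged 131 ± 18.2 CPM in KO_BLM lungs and 228 ± 32.1 CPM in WT_BLM lungs (SD, n = 4 each), a fall of 1.74-fold (edgeR log2 change −0.80 with SE 0.13, adjusted p = 0.00141). Desmin is also made by cardiac and skeletal muscle and by pericytes, and values for those markers are given beside the lists that follow. The restricted genes thus held a pair that fell, Actg2 and Des.

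Lmod1 encodes leiomodin 1, which starts new actin filaments in smooth muscle (gene 93689, chromosome 1, 135324813 to 135368065). Its level was 10.5, 11.7, 9.59 and 10.3 CPM in KO_BLM lungs, against 5.83, 8.63, 9.11 and 6.43 CPM in WT_BLM lungs. The groups did not overlap, although KO_BLM replicate 3 and WT_BLM replicate 3 were close. Lmod1 averaged 10.5 ± 0.861 CPM in KO_BLM lungs and 7.50 ± 1.61 CPM in WT_BLM lungs (SD, n = 4 each), a rise of 1.40-fold (edgeR log2 change 0.49 with SE 0.17, adjusted p = 0.0399). It passed in 13 of 19 alternatives. The edgeR adjusted p was 0.0741, 0.106 and 0.0643 without KO_BLM replicates 1, 2 and 4, and 0.104 and 0.0816 without WT_BLM replicates 1 and 4.

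Synpo2 encodes synaptopodin 2, an actin-binding protein of the Z-disc and dense bodies (gene 118449, chromosome 3, 123076519 to 123236168). Its level was 23.2, 26.6, 18.7 and 34.2 CPM in KO_BLM lungs, against 13.7, 20.1, 20.3 and 9.09 CPM in WT_BLM lungs. Only KO_BLM replicate 3 lay inside the WT_BLM range. Synpo2 averaged 25.7 ± 6.51 CPM in KO_BLM lungs and 15.8 ± 5.42 CPM in WT_BLM lungs (SD, n = 4 each), with a log2 difference of 0.70 (SE 0.26, edgeR adjusted p = 0.0531). It passed in 7 of 19 alternatives, among them edgeR without KO_BLM replicate 3 (adjusted p = 0.0375), without WT_BLM replicate 2 (0.0379) and without WT_BLM replicate 3 (0.0422).

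Mylk encodes myosin light chain kinase, which phosphorylates the light chain made by Myl9 (gene 107589, chromosome 16, 34745199 to 35002436). Its level was 377.8, 331.3, 247.2 and 252.3 CPM in KO_BLM lungs, against 307.9, 276.9, 283.7 and 272.5 CPM in WT_BLM lungs. The KO_BLM libraries lay on both sides of the WT_BLM range. Mylk averaged 302 ± 63.5 CPM in KO_BLM lungs and 285 ± 15.8 CPM in WT_BLM lungs (SD, n = 4 each), with a log2 difference of 0.08 (SE 0.14, edgeR adjusted p = 0.655). Without KO_BLM replicate 1 it was −0.043.

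**Figure D2:**
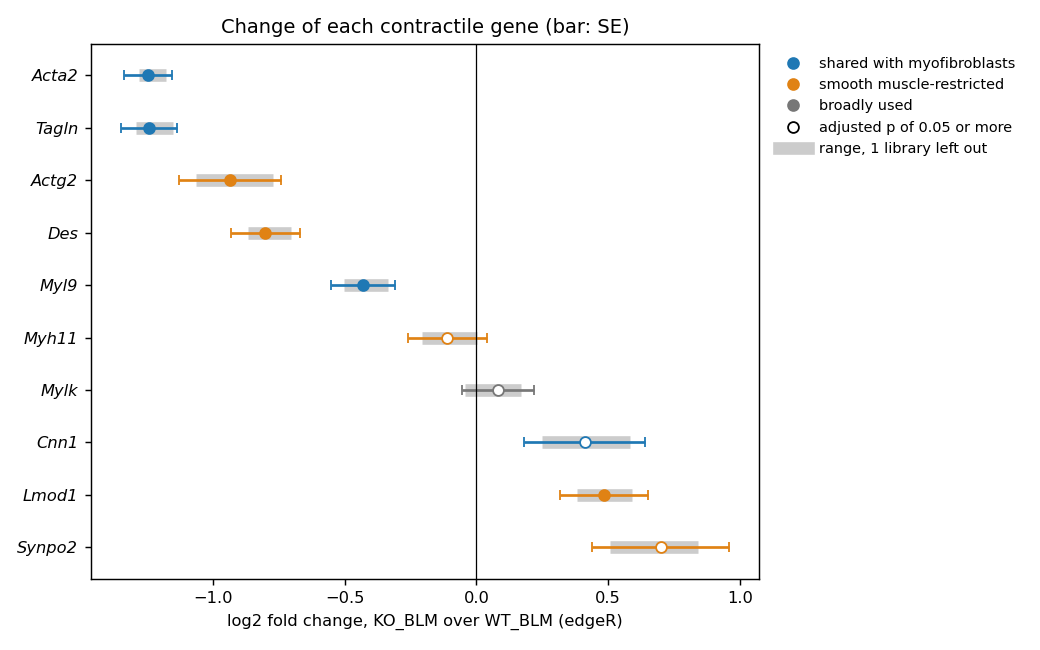
Log2 fold change of each contractile gene, KO_BLM over WT_BLM, ordered by value; colours mark genes shared with myofibroblasts, smooth muscle-restricted genes and Mylk. Thin bars are standard errors, grey bands the range with 1 library left out and open points did not pass; Acta2 and Tagln lie near −1.25 and Synpo2, at 0.70, is the highest.

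On the per-length scale of FPKM (counts per kilobase of gene and library size), Tagln had the highest mean of the 10 genes in both groups, 96.8 ± 12.4 in KO_BLM lungs and 216 ± 11.4 in WT_BLM lungs (SD, n = 4 each). In KO_BLM lungs Acta2, at 75.8 ± 7.06 FPKM, lay close to Myl9, at 78.1 ± 7.74 FPKM. In WT_BLM lungs Acta2, at 170 ± 7.96 FPKM, was well above Myl9, at 99.7 ± 17.6 FPKM. Cnn1, at 19.4 ± 5.01 FPKM in KO_BLM lungs and 13.8 ± 3.76 FPKM in WT_BLM lungs, and Actg2, at 16.1 ± 4.02 FPKM in KO_BLM lungs and 29.1 ± 5.24 FPKM in WT_BLM lungs, also changed places. Lmod1 and Synpo2 were the lowest in both groups: Lmod1 had 2.75 ± 0.202 FPKM in KO_BLM lungs and 1.85 ± 0.446 FPKM in WT_BLM lungs, and Synpo2 had 2.66 ± 0.728 FPKM in KO_BLM lungs and 1.55 ± 0.569 FPKM in WT_BLM lungs, values closer together than their SDs.

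Whether a shared gene and a restricted gene differed in their response was tested with the ratio of Acta2 to Myh11 counts inside each library, which does not depend on scaling. The pair was chosen with earlier results of these data known. The ratio was 2.36, 2.59, 3.05 and 3.03 in KO_BLM lungs, against 5.94, 5.35, 5.55 and 7.35 in WT_BLM lungs. Every KO_BLM ratio was lower than every WT_BLM ratio. The mean log2 ratio differed by −1.13 (2.19-fold), with an exact two-sided permutation p of 0.0286, the smallest that 70 arrangements of 4 against 4 allow. Other pairs gave other sizes, and 1 gave the other sign. With Lmod1, Synpo2 or Des in place of Myh11 the difference was −1.76, −1.99 or −0.45, each with the same exact p, and with Actg2 it was −0.29 with an exact p of 0.229. With Tagln in place of Acta2 it was −1.13 and with Cnn1 it was 0.53, in the opposite direction, both with an exact p of 0.0286, while Myl9 gave −0.31 with an exact p of 0.0571. Adjusted over the 8 pairs by Benjamini-Hochberg, the exact p of 0.0286 became 0.0381, that of Myl9 0.0653 and that of Actg2 0.229. The pairs with Actg2, Des, Synpo2, Cnn1 and Myl9 were added after the data were seen. All 8 pairs hold Acta2 or Myh11, and most lie at the smallest possible p. The adjusted values therefore depend on which pairs were added and do not correct for that choice. For Acta2 to Myh11, leaving out 1 library gave −1.19 to −1.03.

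Set against Myh11 in the same way, the other genes spread to both sides. Tagln (−1.13), Actg2 (−0.84) and Des (−0.68) had log2 ratios to Myh11 that were lower in all KO_BLM libraries than in any WT_BLM library. Cnn1 (0.53), Lmod1 (0.63) and Synpo2 (0.86) had ratios that were higher in all KO_BLM libraries than in any WT_BLM library. For Cnn1 the count ratio was 0.367, 0.382, 0.328 and 0.518 in KO_BLM lungs, against 0.279, 0.274, 0.328 and 0.218 in WT_BLM lungs, so its lowest KO_BLM and highest WT_BLM libraries were almost equal. Myl9 (−0.31) and Mylk (0.18) overlapped. The restricted genes were therefore on both sides of Myh11, as were the shared genes.

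**Figure D3:**
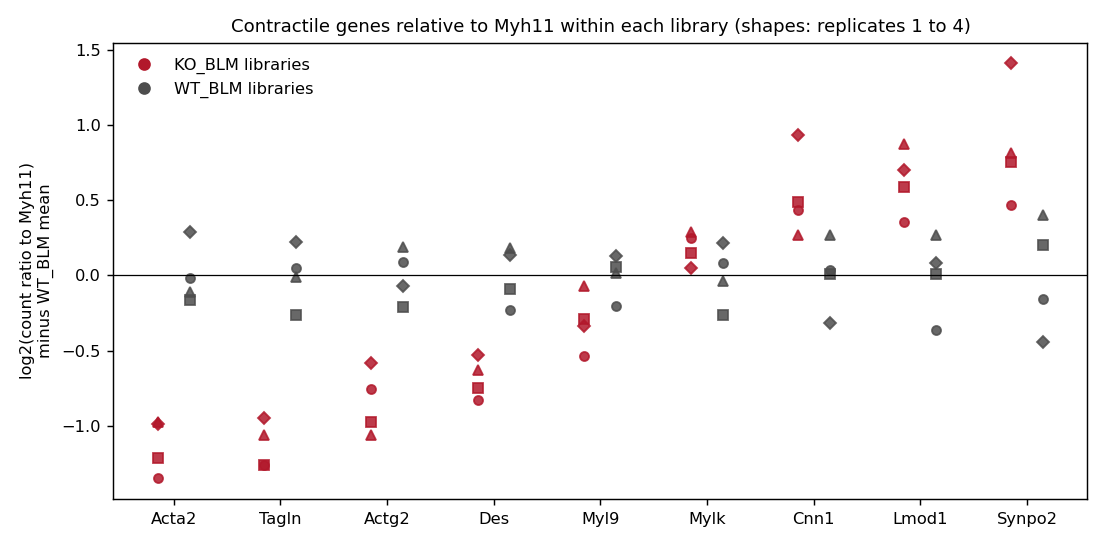
Log2 ratio of each contractile gene's counts to Myh11 counts in the same library, minus the WT_BLM mean of that ratio, with KO_BLM left of WT_BLM and a shape for each replicate number. Acta2, Tagln, Actg2 and Des ratios were lower in all 4 KO_BLM libraries than in any WT_BLM library, Lmod1 and Synpo2 ratios were higher in all 4, and Cnn1 ratios almost touched.

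KO_BLM replicate 3 was the lowest KO_BLM library for all 10 genes, with a median deviation from the group's mean log2 CPM of −0.31, against 0.0064 over all tested genes. WT_BLM replicate 4 was the lowest WT_BLM library for 6 genes (Tagln, Cnn1, Myh11, Actg2, Synpo2 and Mylk), with a median deviation of −0.17. Some of the other libraries had genes on both sides of their group mean: WT_BLM replicate 1 was at −0.33 from it for Lmod1 and at 0.11 for Mylk, and KO_BLM replicate 4 was at 0.44 for Synpo2 and at −0.24 for Mylk. Over the 8 libraries, which share the genotype difference, log2 CPM of Acta2 and Tagln had a Pearson r of 0.99, Tagln and Des 0.95, Actg2 and Des 0.94 and Acta2 and Des 0.94. Cnn1 and Synpo2 had 0.91 and Lmod1 and Synpo2 0.85. Acta2 and Myh11 had 0.37, Acta2 and Cnn1 −0.41, and Acta2 and Lmod1 −0.75.

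**Figure D4:**
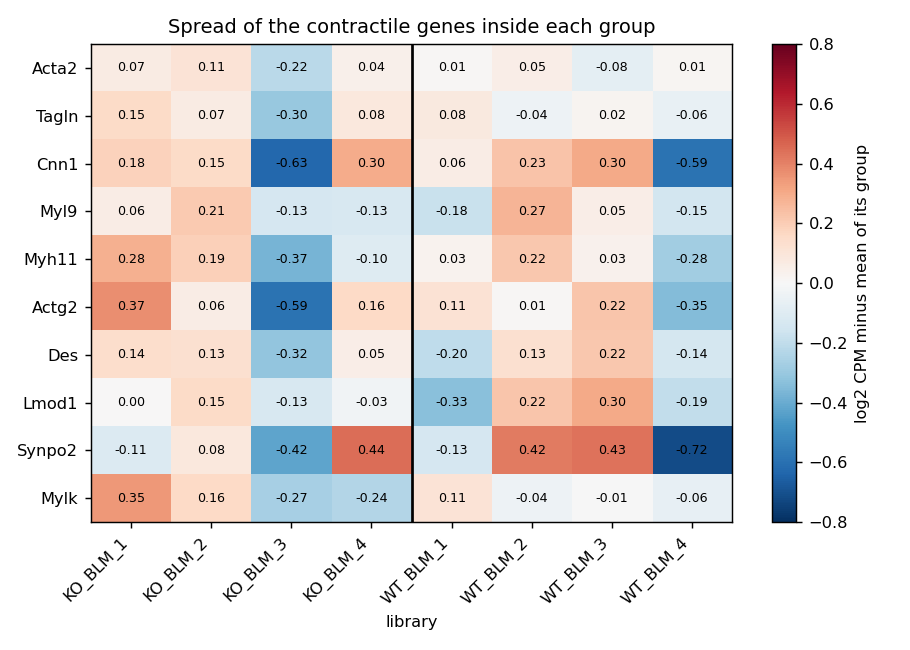
Deviation of each contractile gene from the mean log2 CPM of its own group, by library, KO_BLM left of WT_BLM. KO_BLM replicate 3 is lowest for all 10 genes and reaches −0.63 for Cnn1.

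Among 14068 other tested genes that averaged 1 CPM or more in either genotype and had no predicted (Gm or Rik) symbol, those with the pattern most like Acta2 over the 8 libraries were Adamts7 (r = 0.996, log2 fold change −2.01), Ybx3 (0.995, −0.48), Traip (0.994, −1.10), Rtn4rl2 (0.992, −2.44) and Cald1 (0.991, −0.93). Those most like Myh11 were Olfr1033 (r = 0.962), Tssc4 (0.953), Crybb3 (0.949), Gcn1 (0.945) and Cad (0.941), and none of these 5 passed the test between genotypes. The correlation includes the genotype difference. Whether such genes were called therefore follows largely from the gene they were matched to and is no separate result. Of the 5 most like Acta2, Cald1, which encodes caldesmon, a thin filament protein that restrains myosin, is a listed contractile partner.

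The counts in the lists that follow are to be read against all tested genes, of which 41.5% were called, 20.8% lower and 20.7% higher. Among filament genes that work beside the 10 contractile genes, of 20 tested partners, 9 were lower, 3 were higher and 8 did not pass. Their median log2 fold change was −0.32. The lower share was above the 20.8% of all tested genes, in a list chosen with earlier results known, and the higher share was near the 20.7%. Actn1, which encodes an alpha-actinin that crosslinks actin, averaged 158 ± 4.60 CPM in KO_BLM lungs and 403 ± 39.9 CPM in WT_BLM lungs (SD, n = 4 each; −1.36, edgeR adjusted p = 8.94e-06). Tpm2, a tropomyosin that lies along actin (−1.13), and Cald1 (−0.93) also fell. Synm, which encodes synemin, a partner of desmin, rose to 55.0 ± 12.6 CPM in KO_BLM lungs, against 18.3 ± 2.27 CPM in WT_BLM lungs (SD, n = 4 each; 1.58, edgeR adjusted p = 0.000133). Pgm5 (0.95) and Cryab (0.35), chosen after their values were seen, were the other higher genes.

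Genes of contraction and relaxation signalling had a median log2 fold change of 0.19, with 2 of 19 lower, 5 higher and 12 not called, and 8 higher when scaled by library totals alone. The calls of the 19 were near the 41.5% of all tested genes. Without KO_BLM replicates 1, 2 or 4 or WT_BLM replicates 1, 2 or 3, the higher genes numbered 2 or 3. Ppp1r14a, an inhibitor of myosin phosphatase, rose (0.85, edgeR adjusted p = 0.0121), as did Gucy1a1, a subunit of the nitric oxide receptor (0.78, adjusted p = 0.00476). Ppp1r12b, a myosin phosphatase subunit (−0.31), and Mrvi1, a target of cGMP-dependent kinase (−0.58), fell.

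Of 12 tested regulators of these genes, 3 were lower, 1 was higher and 8 did not pass, with a median of −0.34, fewer calls than the 41.5% of all tested genes. DESeq2 and limma-voom each called 5 lower. Mrtfb, a partner of serum response factor, averaged 70.7 ± 4.68 CPM in KO_BLM lungs and 117 ± 13.4 CPM in WT_BLM lungs (SD, n = 4 each; −0.72, edgeR adjusted p = 0.000502). Heyl, a Notch target, fell (−0.76, adjusted p = 0.0134). Srf itself lay at the threshold (−0.30, edgeR adjusted p = 0.0492), and leaving out KO_BLM replicate 2, 3 or 4 or any WT_BLM replicate gave 0.0503 to 0.110. Foxo4 rose (0.56, edgeR adjusted p = 0.0174), with 0.0529 without KO_BLM replicate 2 and 0.0527 without WT_BLM replicate 1. Myocd, which encodes myocardin and was chosen after its values were seen, had 3.43 ± 1.21 CPM in KO_BLM lungs and 5.81 ± 1.63 CPM in WT_BLM lungs (SD, n = 4 each; −0.76, edgeR adjusted p = 0.0767), and passed without WT_BLM replicate 2 (0.0360).

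Markers of cells that could carry these transcripts moved as follows, and their part in the contractile results was not tested. Counts stand against 20.8% lower and 20.7% higher over all tested genes. Activated fibroblast and myofibroblast markers had 13 of 14 lower and none higher, with a median of −2.08, and their summed level was 3280 to 4280 CPM in KO_BLM lungs, against 14081 to 16501 CPM in WT_BLM lungs. Col1a1, a collagen chain, fell 5.51-fold and Cthrc1 fell 7.80-fold, while Acta2 fell 2.37-fold. Pericyte markers had 5 of 12 lower and 1 higher, with a median of −0.36 and a summed level of 685 to 1023 CPM in KO_BLM lungs, against 1173 to 1347 CPM in WT_BLM lungs. Postn, 1 of the 5 lower genes, is named because it is in the activated fibroblast list too. It gave 272 to 348 CPM of the pericyte sum in KO_BLM lungs and 357 to 492 CPM in WT_BLM lungs. Without KO_BLM replicate 4, 4 pericyte markers were higher. Rgs5 fell 4.51-fold and Pdgfrb 1.77-fold, while Trpc6, chosen after its values were seen, rose (log2 fold change 0.62, edgeR adjusted p = 0.00709).

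Of all tested genes, 20.8% were lower and 20.7% higher. Vascular smooth muscle markers had 3 of 10 tested genes lower and none higher, with a median of −0.27 and a summed level of 564 to 929 CPM in KO_BLM lungs, against 880 to 1080 CPM in WT_BLM lungs. Mcam gave the largest part of this sum, 259 to 440 CPM in KO_BLM lungs, against 396 to 552 CPM in WT_BLM lungs. Its edgeR adjusted p was 0.0398, and 0.0593 to 0.105 without KO_BLM replicate 2, 3 or 4 or WT_BLM replicate 1, 2 or 4. Notch3, named because it is in the pericyte list too, was not called. Of the 3 lower markers, Heyl is also a listed regulator, and 1 marker was lower without KO_BLM replicate 2, KO_BLM replicate 4 or WT_BLM replicate 1. Airway smooth muscle markers had 2 of 7 lower and 2 higher, with a median of 0.36. Their summed level was 276 to 387 CPM in KO_BLM lungs, against 209 to 273 CPM in WT_BLM lungs. Foxf1, named because it gave the most of this sum, had 154 to 300 CPM in KO_BLM lungs, against 155 to 189 CPM in WT_BLM lungs. It was not called (edgeR adjusted p = 0.143). limma-voom called 4 airway markers higher. Hhip rose 2.16-fold and Actc1 3.21-fold, while Dkk2 fell 8.41-fold. The lower genes numbered 1 without WT_BLM replicate 4. Actc1 encodes cardiac actin and is in the cardiac list too.

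The cardiac and mesothelial lists likewise held calls at shares close to or under the 41.5% of all tested genes. Cardiac muscle markers, which mark the muscle sleeve of pulmonary veins, had 3 of 10 higher and none lower, and their summed level was 74.3, 89.2, 221 and 282 CPM in KO_BLM lungs, against 166, 42.1, 55.1 and 66.3 CPM in WT_BLM lungs. Without WT_BLM replicate 1, 5 cardiac markers were higher. KO_BLM replicates 3 and 4 had the highest sums of these markers, and whether such muscle adds to the level of Des was not tested. Skeletal muscle markers had 2 of 6 higher, with a summed level of 6.83 to 31.1 CPM in KO_BLM lungs, against 6.94 to 10.1 CPM in WT_BLM lungs, and none was higher without KO_BLM replicate 3, KO_BLM replicate 4 or WT_BLM replicate 4 and 1 was higher without WT_BLM replicate 1 or 3. In turn 1 skeletal marker was lower without any 1 of the KO_BLM replicates or without WT_BLM replicate 4. Mesothelial markers had 2 of 7 lower and 1 higher, with a summed level of 570 to 711 CPM in KO_BLM lungs, against 601 to 888 CPM in WT_BLM lungs. The lower mesothelial markers numbered 1 without KO_BLM replicate 1 or 2 or WT_BLM replicate 1, and the higher ones 0 without KO_BLM replicate 1 or WT_BLM replicate 3 and 3 without WT_BLM replicate 2.

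Resident alveolar fibroblast markers had 9 of 12 higher and none lower, with a median of 0.90 and a summed level of 5037 to 7019 CPM in KO_BLM lungs, against 2752 to 3901 CPM in WT_BLM lungs. Tcf21, a transcription factor of these fibroblasts, rose 3.22-fold. Endothelial markers had 7 of 10 higher (4 without WT_BLM replicate 3) and 1 lower, with a median of 0.50 and a summed level of 3194 to 4960 CPM in KO_BLM lungs, against 2943 to 3709 CPM in WT_BLM lungs. By the same sum, the 4 shared contractile genes had 399 to 515 CPM in KO_BLM lungs, against 961 to 1026 CPM in WT_BLM lungs. The 5 restricted genes had 204 to 294 CPM in KO_BLM lungs, against 319 to 422 CPM in WT_BLM lungs. Des gave the most of the restricted sum, 104 to 143 CPM in KO_BLM lungs, against 196 to 262 CPM in WT_BLM lungs. The lower restricted sum is therefore not a fall of all 5 genes. Actg2 also fell, but Myh11 and Synpo2 overlapped between the groups and Lmod1 was higher.

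**Figure D5:**
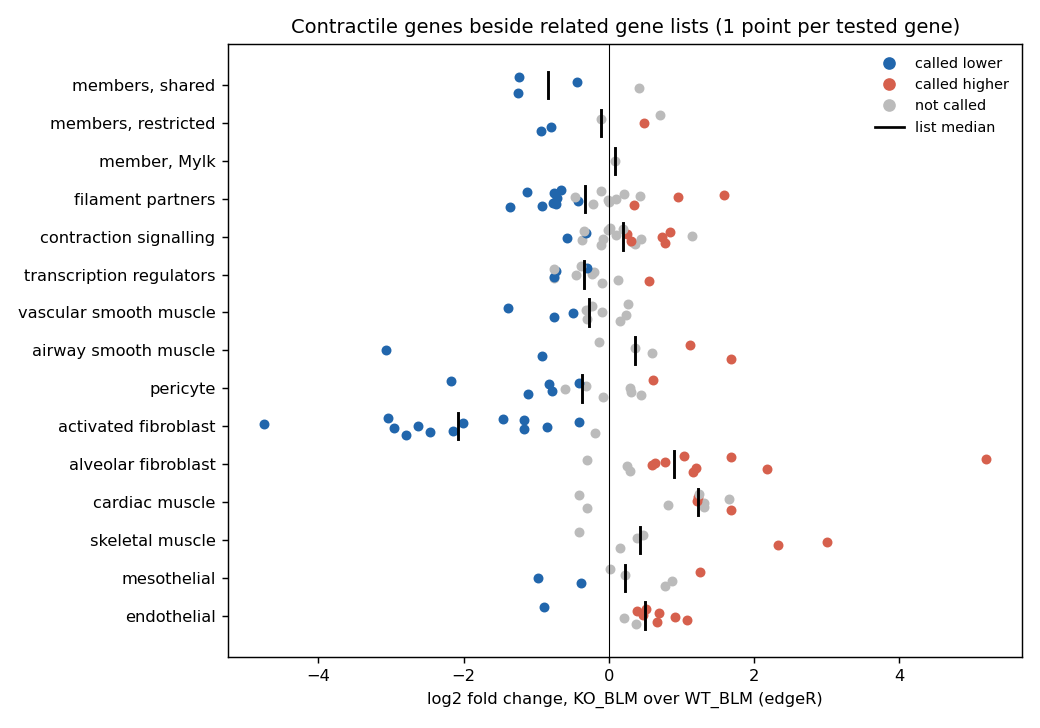
Log2 fold change of every tested gene in each list, KO_BLM over WT_BLM, coloured by call, with black bars at the list medians and the contractile genes in the top 3 lines. Activated fibroblast markers have a median of −2.08 and alveolar fibroblast markers 0.90, and the medians of both groups of contractile genes lie between them.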

How the data were processed

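RNA from whole lung was made into stranded mRNA libraries, per the labels' protocols. Per the submitters' processing notes, Trimmomatic, HTSeq, Cufflinks and DESeq were used with mm10; for the aligner and the strand setting, the sources used here give nothing. The authors deposited raw gene counts and FPKM for each library in a table of 18824 genes. The deposited FPKM equalled count per library total and gene length for all 18824 genes within a relative tolerance of 0.0001. The tests used the counts.

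Counts were tested with edgeR 4.0.16 in R 4.3.3 (TMM, filterByExpr with a minimum count of 10, robust quasi-likelihood F test, Benjamini-Hochberg at 0.05), and CPM use TMM library sizes. DESeq2 1.42.0, limma 3.58.1 on voom values and on log2(FPKM + pseudocount) with pseudocounts of 1 and 0.1, other scalings and filters, and leaving out each library were alternatives. Ratios used an exact permutation test (scipy 1.17.1) after adding 0.5 to each count. On simulated counts with the gene means and library sizes of these data, 14810 genes were tested. There edgeR recovered 42% of 1.5-fold and 96% of 2-fold changes, and 4.52% of its calls were false. The simulation changed few genes, none of low count, and gave every gene the same variability. In the data 41.5% of tested genes were called, so these rates need not hold for them. No batch is given in the labels, and no pair of libraries of the same group agreed within counting noise. KO_BLM replicates 1 and 2 were the closest pair, with a chi-square per degree of freedom of 7.48. The other pairs had 15.7 to 58.1. Members and lists were chosen with earlier results of these data known. The genes named are the 10 contractile genes, Slc15a3, the listed genes of smallest p (up to 4 in a list), and the 5 most like Acta2 and Myh11; others are marked where named. Sequences are from RefSeq, GRCm38.p6.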

Additional observations from a re-analysis of the deposited data

Results flagged for a closer look

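Of 116 groups of 4 libraries checked for a library far from the rest, 2 were flagged, and chance flags about 1 group in 20. Mrvi1 was 12.1 CPM in WT_BLM replicate 1, while the other WT_BLM libraries had 14.5 to 14.9 CPM, and the gap was 0.863 of the range. Tpm2 was 78.6 CPM in WT_BLM replicate 4, while the others had 98.3 to 100.1 CPM, and the gap was 0.918 of the range. WT_BLM replicate 4 was also the lowest WT_BLM library for 6 of the 10 contractile genes. No contractile gene was flagged.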

How the results depend on the processing

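Acta2, Tagln, Actg2 and Des were lower and passed in all 19 alternatives, and 171 of the 190 alternative values of the 10 genes kept their direction and side of the threshold, 9 lost the call, 8 gained it and 2 changed sign. Those were Myh11 without KO_BLM replicate 3 (0.0017, range −0.21 to 0.0017 with 1 library left out) and Mylk without KO_BLM replicate 1 (−0.043, range −0.043 to 0.17). The cause was not tested. Called members numbered 5 to 8, and called genes 4494 to 5853 with 1 library left out, against 6118. Scaling by library totals alone gave 3789 higher and 2253 lower genes (62.7% higher, against 50.0%), with a median shift of 0.0858, and limma on log2(FPKM + 1) gave 3368 higher and 2036 lower. The log2 Acta2 to Myh11 difference was −1.19 to −1.03 with 1 library left out, with an exact p of 0.0571, the smallest 35 arrangements allow. Among pairs added after the data were seen, it was −0.29 with Actg2 in place of Myh11, and, in place of Acta2, −0.31 with Myl9 and 0.53, reversed, with Cnn1. The shared median moved to −0.43 with Mylk counted as shared and to −1.24 with Cnn1 counted as restricted, and the restricted median to 0.15. Deviations from the group means had correlations of −0.0922 to 0.0887 between same-numbered libraries and of −0.148 to 0.140 between the others. These values gave no sign of pairing by number, but they cannot show how the libraries were handled. A replicate block called 5702 genes and 5 members, with Lmod1 at 0.51 (edgeR adjusted p = 0.0526). Lmod1 had as few as 106 counts in a library.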
